A study of Sus scrofa with 4 samples.

Results

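Metallothioneins, the metal-responsive transcription factor MTF1 and zinc transporters were examined in the transcriptome of porcine oocytes matured with or without added copper. The genes were 10 rows of the deposited expression table chosen by gene symbol, namely MT1A, MT3, MTF1, SLC30A1, SLC30A5, SLC30A9, SLC39A1, SLC39A6, SLC39A7 and SLC39A10, out of 30684 rows, of which 16050 hold values. Each library was prepared from 3 oocytes at metaphase II, taken from slaughterhouse ovaries as cumulus-oocyte complexes and matured in vitro for 42 to 44 h, and was amplified by Smart-seq2, which copies polyadenylated transcripts from very small samples. The Control group (replicates 1 and 2) received the maturation medium alone, with follicular fluid, gonadotropins, growth factors and cysteine, and the Cu group (replicates 1 and 3) received the same medium with 25 μg/mL Cu from copper sulfate, the dose that the methods give for the experiments in general. Breed and age of the animals are not given in the sources used here. Nothing states that the libraries of a group came from separate animals or cultures, so the p-values measure only the spread between these libraries.

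Metallothioneins are small, cysteine-rich proteins that bind zinc and copper ions and keep them from reacting freely in the cytosol. MTF1 is a zinc finger protein that senses free zinc, binds metal response elements and raises the transcription of metallothionein genes and of the zinc exporter gene SLC30A1. Transporters of the SLC30 family carry zinc out of the cytosol, across the plasma membrane or into organelles, and those of the SLC39 family carry zinc into the cytosol. Mammalian oocytes take up zinc during meiotic maturation and release it when they are activated. Excess copper can displace zinc from metallothionein.

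Expression is given in FPKM, which corrects for transcript length and library size, so levels of different genes can be set side by side, but the number of reads behind them is unknown. The libraries were those of oocytes by their markers. All 9 oocyte markers (ZP2, ZP3, ZP4, GDF9, BMP15, DAZL, NLRP5, OOEP and KIT) had values, with sums of 3931 (Control 1), 5055 (Control 2), 7026 (Cu 1) and 5463 FPKM (Cu 3), higher in both Cu libraries. Taken singly, only GDF9 and OOEP had both Cu values above both Control values, and the groups of the other oocyte markers overlapped. Of 12 cumulus and granulosa cell markers, 7 had values. The sums of these 7 were between 0.51 and 1.31 FPKM, the largest in Cu 1, and AMH was listed at 0 in all 4 libraries. The 2 leukocyte markers with values summed to between 0.09 and 0.41 FPKM and the 4 stromal markers to between 0.73 and 2.02 FPKM, again with the largest sums in Cu 1. The stromal sums were above Control in both Cu libraries, though by little in Cu 3 (1.5 against 1.47 FPKM in Control 2). Of the stromal markers, only DCN was higher in both Cu libraries, while COL1A1 and COL3A1 were lower in both and COL1A2 overlapped. The part of such cells in the results was not tested. Cu 1 stood apart, with 9364 genes at 1 FPKM or more against 7923 to 8162 in the other libraries. Across genes, its Pearson correlations of log2(FPKM + 1) with the others were between 0.918 and 0.923, against 0.959 to 0.976 among the other libraries. Differences are given as Cu minus Control on the log2(FPKM + 1) scale, for the 8541 genes that reached 1 FPKM in 2 libraries or more, with limma's test and Benjamini-Hochberg adjustment over all of them.

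Of the 10 genes, 0 passed an adjusted p of 0.05 by limma, as did 0 of the 8541 tested genes (0%). Without Cu 1 the number over all tested genes was 186, with 0 of the 10 among them, and without Cu 3 it was 1755, with MT3 as the only one of the 10. In the 4 libraries, none of the 10 passed an unadjusted p of 0.05, which was passed by 599 of the tested genes (7.01%). With a log2 difference of at least 1.5 in addition there were likewise 0 of the 10, against 1.87%. MT3 was the closest, with an unadjusted p of 0.0541. FPKM are relative to the total of a library, so less of a transcript and more of all others cannot be told apart. All 10 genes passed the filter on low values, but SLC39A7 did so only through the Cu libraries. The log2 difference was above 0 for 7 of the 10 genes, against 64.3% of all tested genes, and its median was 0.18 over the 10 genes and 0.16 over all tested genes. With quantile normalization, which moved the median of all tested genes to -0.07, 3 of the 10 were above 0, and with median-of-ratios scaling, which moved it to -0.04, 4 were. Each Cu value exceeded each Control value for MT3, SLC30A1 and SLC39A7, so for 3 of 10 genes against 25.4% of all tested genes, or for 2 of 9 without SLC39A7, which had entered through its Cu values. Both lay below for MT1A and SLC30A9, so for 2 of 10 genes against 13.4%. The count of separated genes, 5 of 10 against 38.8% of all tested genes, was 7 without Cu 1 (74.5% of all tested genes), 9 without Cu 3 (83.5%), 8 without Control 2 (60.5%) and 6 without Control 1 (58.7%), where fewer libraries have to be apart. The authors' mean FPKM of each group had, for all 10 genes, the decimals of a mean over 3 libraries, and so cover 1 library per group that is not listed. Taken as such, they leave MT1A as the only one of the 5 genes with the groups apart, or 20% of them, against 30% of the 3313 separated genes among all tested genes. Statements on separated groups below hold for the 4 listed libraries alone. With 2 libraries against 2, the smallest p of an exact permutation test (two-sided) is 0.333.

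**Figure D1:**
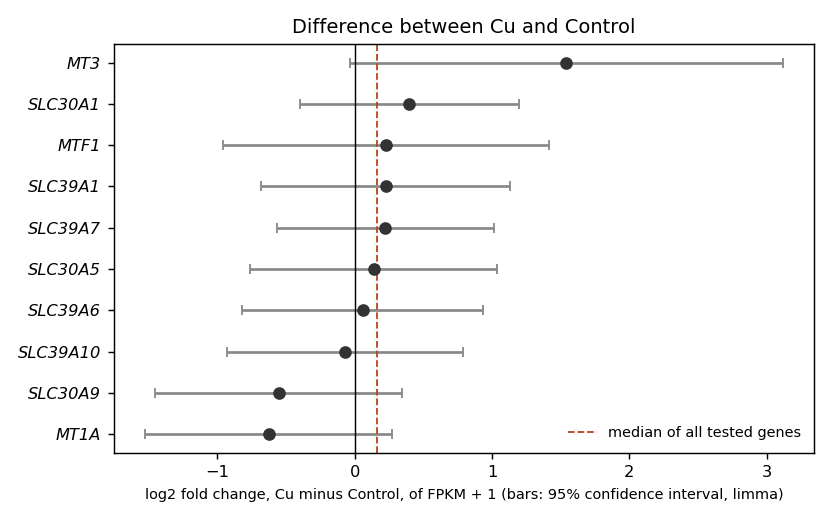
Log2 difference of FPKM + 1 (Cu minus Control, n = 2 libraries each) on the horizontal axis for the 10 genes on the vertical axis, as points with 95% confidence intervals from limma. The dashed line is the median of all tested genes, 0.16, and the interval of each gene, also that of MT3 (-0.04 to 3.12), includes 0.

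The metallothionein genes lie in a cluster on chromosome 6 of the pig genome (Sscrofa11.1, RefSeq), between the first base of MT4 at 18611245 and the last base of MT1A at 18673673, an interval of 62.4 kb with 7 protein-coding genes and 1 lncRNA gene. MT3 and MT1A, the genes of the 10 in this cluster, had log2 differences of opposite sign, neither of which passed the test. The table has values for 6 of the 8 genes, and none for MT4 or for the lncRNA gene, which overlaps MT1D.

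MT1A (identifier 397417, chr6:18672016-18673673), a widely expressed metallothionein, stood at 5.97 (Control 1), 7.0 (Control 2), 3.31 (Cu 1) and 4.44 FPKM (Cu 3). Each Cu value was under each Control value. The mean was 6.49 ± 0.73 (SD, n = 2) FPKM in Control and 3.88 ± 0.80 (SD, n = 2) FPKM in Cu. The log2 difference was -0.62 (SE 0.37, 95% confidence interval -1.52 to 0.27, limma adjusted p = 0.75). The authors' means were 8.12 FPKM for Control and 3.63 FPKM for Cu, and thus were also lower in Cu. Under all 10 alternative settings the log2 difference was below 0, between -0.92 and -0.46.

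MT3 (identifier 397123, chr6:18634735-18636134), a metallothionein best known from the brain, stood at 8.10 (Control 1), 1.91 (Control 2), 19.6 (Cu 1) and 9.87 FPKM (Cu 3). The Cu libraries were above the Control libraries, but Cu 3 was only slightly above Control 1. Within the groups the libraries were far apart, by 1.64 on the log2 scale in Control and 0.92 in Cu. MT3 had the widest range of the 10 genes, 10.2-fold from the lowest to the highest library. The log2 difference was 1.54 (SE 0.64, limma adjusted p = 0.71). Without Control 2 it was 0.72, without Control 1 it was 2.36, without Cu 1 it was 1.08 and without Cu 3 it was 2.0. Only in the fit without Cu 3 did MT3 have an adjusted p of 0.05 or less, 0.012, where Cu 1 stood alone and was assumed to vary as the Control libraries did. The authors' means were 5.54 FPKM for Control and 11.2 FPKM for Cu. Taken with these means, the groups of MT3 overlapped.

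The level of these genes was small beside that of MT-2B (identifier 396827, chr6:18645125-18646034), the neighbouring metallothionein gene, which is not among the 10 genes. MT-2B stood at 1512 (Control 1), 1238 (Control 2), 2830 (Cu 1) and 2816 FPKM (Cu 3). It ranked between 22 and 57 among the 16050 genes of each library, and it made up 98.2% and 98.3% of the summed FPKM of the 4 metallothionein genes with values in Control 1 and 2, and 99.0% and 98.8% in Cu 1 and 3. Each Cu value exceeded each Control value, by more than the libraries of either group differed from each other. The log2 difference was 1.04 (SE 0.24, 95% confidence interval 0.47 to 1.62, limma adjusted p = 0.63, unadjusted p = 0.0044). Leaving out each library in turn gave 0.90 to 1.19, with an adjusted p of 0.016 without Cu 3, the only setting at 0.05 or less, and 0.060 without Cu 1. The authors' means over 3 libraries were much closer to each other, 2206 FPKM for Control, above both listed Control libraries, and 2393 FPKM for Cu, below both listed Cu libraries. Taken with these means, the groups of MT-2B overlapped, and the 2 listed libraries of each group overstate its difference over 3.

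MT1D (identifier 100037920), between MT-2B and MT1A, stood at 14.0 (Control 1), 12.7 (Control 2), 6.21 (Cu 1) and 19.1 FPKM (Cu 3). The Cu libraries lay on either side of the Control libraries, and the log2 difference was -0.25 (SE 0.54, limma adjusted p = 0.93), or 0.49 without Cu 1. Over the list of metallothioneins, 4 of 5 genes were tested, 2 were higher and 2 lower in Cu, and 0 passed an adjusted p of 0.05. The coding sequences of metallothionein genes are much alike, and reads could have been divided between copies, so the levels of the weaker genes beside MT-2B are uncertain. The protein-coding genes LOC100739663 and LOC102166944, which lie between MT1D and MT1A and were looked up after the values were seen, had 0.27 to 2.08 FPKM and 3.75 to 10.6 FPKM over the 4 libraries, with the groups overlapping in both.

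**Figure D2:**
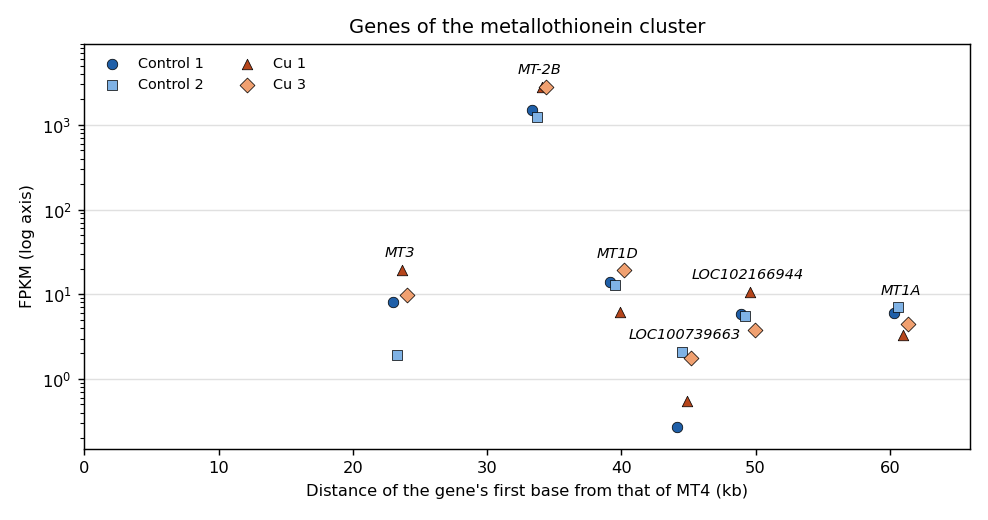
FPKM (vertical, log axis) of the 6 genes with values in the metallothionein cluster in each of the 4 libraries, against the distance of each gene's first base from that of MT4 in kb (horizontal). Markers of a gene are moved slightly sideways to keep them apart. MT-2B stands at 1238 to 2830 FPKM, and the others are between 0.27 and 19.6 FPKM.

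MTF1 (identifier 100511998, chr6:93837195-93884427) stood at 12.2 (Control 1), 13.9 (Control 2), 24.1 (Cu 1) and 9.72 FPKM (Cu 3). Cu 1 was the highest and Cu 3 the lowest of the 4 libraries, so the groups overlapped. The gap between the Cu libraries was 1.23 on the log2 scale, and that between the Control libraries 0.18. The log2 difference was 0.23 (SE 0.49, 95% confidence interval -0.96 to 1.42, limma adjusted p = 0.93), and its sign turned without Cu 1, to -0.39, and with median-of-ratios scaling, to -0.01. The authors' means were 13.2 FPKM for Control and 14.8 FPKM for Cu.

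A list of genes known as MTF1 targets in mammals (MT1A, MT2A, SLC30A1, SLC30A2, SLC39A10, GCLC, SLC40A1, SELENOW and SELENOH) had 7 tested genes. Of these 5 were higher and 2 lower in Cu, with a median log2 difference of 0.40 against 0.16 for all tested genes. The direction in which MTF1 acts on each gene was not taken into account in these numbers. After quantile normalization the median was 0.12, with 4 of 7 higher, against -0.07 for all tested genes, and after median-of-ratios scaling 0.26 against -0.04. Of the 7, 0 passed an unadjusted p of 0.05, against 7.01% of all tested genes. Each Cu value exceeded each Control value in the 4 listed libraries for 4 of the 7 (SLC30A1, GCLC, SELENOW and SELENOH), against 25.4% of all tested genes. Taken with the authors' means over 3 libraries, the groups of SLC30A1, GCLC and SELENOW overlapped. Of these 4 genes, only SELENOH still had the groups apart. The authors' means for Control and Cu were 28.8 and 37.4 FPKM for GCLC, 150 and 203 FPKM for SELENOH, and 3.28 and 3.84 FPKM for SELENOW. For GCLC and SELENOW the Cu mean was below both listed Cu libraries. GCLC, the catalytic subunit of the enzyme that limits glutathione synthesis, stood at 25.5 (Control 1), 31.1 (Control 2), 47.3 (Cu 1) and 40.7 FPKM (Cu 3), a log2 difference of 0.62 (SE 0.31, limma adjusted p = 0.72). The selenoprotein gene SELENOH stood at 129 (Control 1), 162 (Control 2), 234 (Cu 1) and 194 FPKM (Cu 3), and its adjusted p in the same test was 0.73. SELENOW, also a selenoprotein gene, stood at 2.90 (Control 1), 3.19 (Control 2), 5.18 (Cu 1) and 3.96 FPKM (Cu 3) (limma adjusted p = 0.79). For SLC40A1, the iron exporter ferroportin, the groups overlapped, with 0.77 to 1.23 FPKM in Control and 1.12 to 1.74 FPKM in Cu. MT2A had no row under that symbol, and SLC30A2 had a row without values.

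SLC30A1 (identifier 503660, chr9:131633586-131636934), the zinc exporter of the plasma membrane, stood at 1.03 (Control 1), 1.09 (Control 2), 1.58 (Cu 1) and 1.85 FPKM (Cu 3). The listed Cu libraries were above the listed Control libraries. The listed libraries of each group were close together, with 1.06 ± 0.04 (SD, n = 2) FPKM in Control and 1.72 ± 0.19 (SD, n = 2) FPKM in Cu. The log2 difference was 0.40 (SE 0.33, 95% confidence interval -0.40 to 1.19, limma adjusted p = 0.80). At this low level the added 1 makes the fold change smaller, and with 0.1 added in place of 1 it was 0.64, while it was 0.12 after quantile normalization. The authors' means were 1.54 FPKM for Control, above both listed Control libraries, and 1.86 FPKM for Cu. Taken with these means, the groups of SLC30A1 overlapped.

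SLC30A5 (identifier 100171388, chr16:47284974-47320892), which moves zinc into the secretory pathway, stood at 3.69 (Control 1), 2.51 (Control 2), 3.31 (Cu 1) and 3.64 FPKM (Cu 3). Both Cu libraries lay between the Control libraries, and the log2 difference was 0.14 (SE 0.37, limma adjusted p = 0.94), while the authors' means were lower in Cu, 4.04 FPKM for Control and 3.73 FPKM for Cu. Its partner in that complex, SLC30A6, stood at 33.7 (Control 1), 10.4 (Control 2), 8.08 (Cu 1) and 23.4 FPKM (Cu 3), so that the libraries of each group were further apart than the group means, and its authors' means, 18.9 FPKM for Control and 24.7 FPKM for Cu, went the opposite way to the listed libraries. SLC30A9 (identifier 100192440, chr8:33058666-33111775), known as an exporter of zinc from mitochondria, stood at 3.93 (Control 1), 3.07 (Control 2), 1.68 (Cu 1) and 2.47 FPKM (Cu 3). Both Cu libraries were lower, and the log2 difference was -0.55 (SE 0.37, 95% confidence interval -1.45 to 0.34, limma adjusted p = 0.78). It was below 0 under all 10 alternative settings, between -0.83 and -0.37, all of them drawn from the listed libraries. The authors' means, 2.73 FPKM for Control and 1.72 FPKM for Cu, were also lower in Cu. The Control mean was below both listed Control libraries, and taken with these means the groups of SLC30A9 overlapped. Of the 10 SLC30 genes listed, 5 were tested, 3 were higher and 2 lower in Cu, and 0 passed an adjusted p of 0.05.

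SLC39A10 (identifier 110257100, chr15:99584830-99724621), a zinc importer of the plasma membrane, had the highest mean level of the 10 genes. It stood at 27.3 (Control 1), 24.5 (Control 2), 20.0 (Cu 1) and 30.0 FPKM (Cu 3). The Cu libraries lay on either side of the Control libraries, and the log2 difference was -0.07 (SE 0.35, 95% confidence interval -0.93 to 0.79, limma adjusted p = 0.97). SLC39A6 (identifier 100621425, chr6:119861853-119885836), which forms a complex with SLC39A10, stood at 12.1 (Control 1), 15.2 (Control 2), 16.4 (Cu 1) and 12.1 FPKM (Cu 3). It was the steadiest of the 10 genes, with a 1.36-fold range over the 4 libraries, and its log2 difference was 0.06 (SE 0.36, 95% confidence interval -0.82 to 0.94, limma adjusted p = 0.98). Its authors' means went the other way, 15.0 FPKM for Control and 14.1 FPKM for Cu. Over the 10 genes, the authors' means and the listed libraries had the same direction for 8, all but SLC30A5 and SLC39A6. 

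SLC39A7 (identifier 100155600, chr7:25242862-25247407), which releases zinc from the endoplasmic reticulum, was near the filter, with 0.89 (Control 1), 0.93 (Control 2), 1.42 (Cu 1) and 1.05 FPKM (Cu 3). Cu 3 was barely above Control 2, and the log2 difference was 0.22 (SE 0.32, limma adjusted p = 0.89), or -0.05 after quantile normalization. SLC39A1 (identifier 100153098, chr4:95729480-95733824), an importer found in most cells, stood at 0.56 (Control 1), 1.24 (Control 2), 1.54 (Cu 1) and 0.88 FPKM (Cu 3), with overlapping groups and a log2 difference of 0.23 (SE 0.37, limma adjusted p = 0.91). With the depth unknown, how precisely levels near 1 FPKM were stood at cannot be given.

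Among the 14 SLC39 genes, 9 were tested, of which 6 were higher and 3 lower in Cu, and 0 passed an adjusted p of 0.05. Each Cu value exceeded each Control value for SLC39A7 and SLC39A14, so for 2 of 9 genes against 25.4% of all tested genes. SLC39A7 had passed the filter only through its Cu values. Both Cu values lay below both Control values for SLC39A12, so for 1 of 9 genes against 13.4%. SLC39A14, an importer that also carries iron and manganese, stood at 3.40 (Control 1), 2.61 (Control 2), 4.63 (Cu 1) and 6.25 FPKM (Cu 3), a log2 difference of 0.68 (SE 0.37, limma adjusted p = 0.73). SLC39A12 stood at 21.0 (Control 1), 26.0 (Control 2), 17.2 (Cu 1) and 17.4 FPKM (Cu 3), a log2 difference of -0.41 (SE 0.33, limma adjusted p = 0.79). SLC39A8, which also carries manganese and cadmium, had the highest mean FPKM of the transporters, but with 58.6 (Control 1), 27.0 (Control 2), 16.8 (Cu 1) and 35.0 FPKM (Cu 3) its groups overlapped. SLC39A9 and SLC39A13, transporters of the Golgi apparatus, also overlapped between the groups, with 2.06 to 3.24 FPKM and 1.04 to 5.22 FPKM over the 4 libraries. Among the SLC30 genes, SLC30A4 was even over the libraries, with 15.0 (Control 1), 19.1 (Control 2), 17.9 (Cu 1) and 19.1 FPKM (Cu 3).

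**Figure D3:**
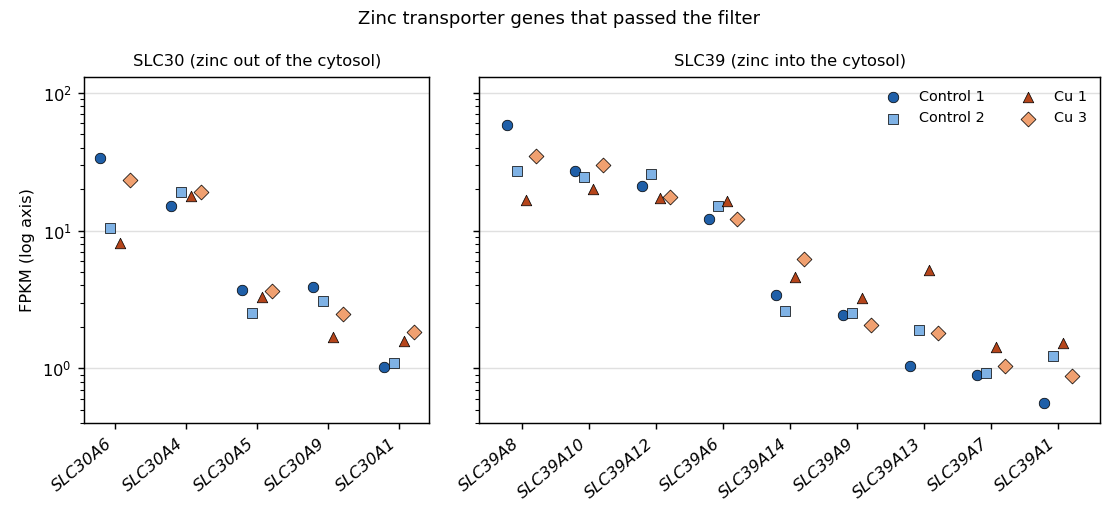
FPKM (vertical, log axis) of the 5 SLC30 genes and 9 SLC39 genes that passed the filter, in each of the 4 libraries, ordered within each family by the mean over the libraries. The groups overlap for most genes, while SLC30A9 and SLC39A12 are lower and SLC30A1, SLC39A7 and SLC39A14 higher in both Cu libraries.

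By the mean over the 4 libraries, the 10 genes ran from SLC39A10 (25.4 FPKM) through MTF1 (15.0 FPKM), SLC39A6 (13.9 FPKM), MT3 (9.86 FPKM), MT1A (5.18 FPKM), SLC30A5 (3.29 FPKM), SLC30A9 (2.79 FPKM), SLC30A1 (1.39 FPKM) and SLC39A7 (1.07 FPKM) to SLC39A1 (1.06 FPKM). Every pair of neighbours in this order overlapped in the range over the libraries of both groups, so these ranges alone do not settle the order of neighbours. Within the same library, SLC30A9 was above SLC30A1 and SLC30A1 above SLC39A7 in 4 of 4 libraries. MTF1 and SLC39A6 exchanged places, with MTF1 above in 2 of 4 libraries. Without a test, the genes whose centred log2(FPKM + 1) over the 4 libraries was nearest in Euclidean distance were RAB27A (0.05) and IL18R1 (0.06) for MT1A, CD2BP2 (0.05) and CTC1 (0.06) for MTF1, and SPATA24 (0.03) and LOC100513362 (0.04) for SLC30A1. With 4 libraries such likeness is common, and 129, 212 and 278 genes were within a distance of 0.25 of MT1A, MTF1 and SLC30A1.

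**Figure D4:**
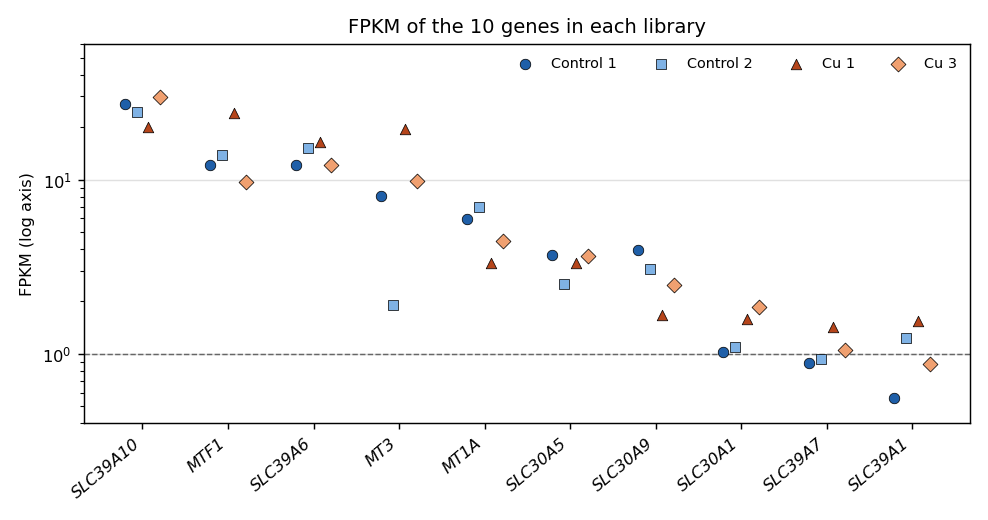
FPKM (vertical, log axis) of the 10 genes in each of the 4 libraries, ordered by the mean over the libraries, with the filter level of 1 FPKM as a dashed line. SLC39A10 lies between 20.0 and 30.0 FPKM, and MT3 has the widest spread, from 1.91 to 19.6 FPKM.

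Ratios of genes within a library do not change when all FPKM of that library are scaled by the same factor. Quantile normalization, which sets values by rank, can change them. The ratios given here were chosen after the values were seen and are a description, without a test. The ratio of MT3 to MT1A was 1.36 (Control 1), 0.27 (Control 2), 5.91 (Cu 1) and 2.22 (Cu 3), and that of MT-2B to MT1A was 253 (Control 1), 177 (Control 2), 855 (Cu 1) and 634 (Cu 3). Both were higher in the Cu libraries, as follows from the values of the single genes in these 4 libraries. The ratio of MT-2B to MT3 was 187 (Control 1), 648 (Control 2), 145 (Cu 1) and 285 (Cu 3), with the groups overlapping. The groups also overlapped for the ratio of the importers SLC39A10 and SLC39A6, which was 2.26 (Control 1), 1.61 (Control 2), 1.22 (Cu 1) and 2.47 (Cu 3). The ratio of the importer SLC39A10 to the exporter SLC30A1 was 26.5 (Control 1), 22.4 (Control 2), 12.7 (Cu 1) and 16.2 (Cu 3), lower in both listed Cu libraries. It rests on the low level of SLC30A1, 1.03 to 1.85 FPKM, whose groups overlapped when taken with the authors' means.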

How the data were processed

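The table deposited by the authors holds FPKM, rounded to 2 decimals, for 2 Control and 2 Cu libraries, and the authors' mean FPKM of each group over 3 libraries, by its decimals, printed only as such. The paper names SOAPnuke, HISAT2, Bowtie2 and RSEM, while the submitters' processing notes list TopHat2 2.0.13, Cufflinks 2.2.1 and build Sscrofa11.1. Which of these made the table was not settled. FPKM keep no read numbers, so no count-based test was run and depth is unknown. Groups came from sample titles. The 8541 genes that reached 1 FPKM in 2 libraries or more were tested on log2(FPKM + 1) by limma 3.58.1 (R 4.3.3), using lmFit and trended eBayes, and p-values were adjusted by Benjamini-Hochberg. Tested on simulated data for this comparison and 8541 genes, 200 of them changed, the fit found 154 for a log2 change of 2 (7 false calls) and 200 for a change of 4 (13 false calls). The simulated noise was independent, with the same spread for a gene in both groups and no library apart from the others as Cu 1 was. These numbers may therefore not hold for the real libraries. Alternatives were a pseudocount of 0.1, no filter or a filter on all 4 libraries, quantile normalization, median-of-ratios scaling, no variance trend and leaving out each library. Named were the 10 genes, the tested genes of the metallothionein, SLC30, SLC39 and MTF1 target lists, and the 2 genes nearest to MT1A, MTF1 and SLC30A1. The genes and lists were chosen with earlier results of these data known. Coordinates are those of RefSeq, by gene identifier.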

Additional observations from a re-analysis of the deposited data

How the results depend on the processing

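Of 98 fits of the 10 genes over 10 alternative settings, 83 kept the sign and the side of an adjusted p of 0.05, 14 turned the sign and 1 passed that limit. MT1A, MT3, SLC30A1 and SLC30A9 kept their sign under all 10. Quantile normalization gave -0.17 for SLC30A5, -0.036 for SLC39A1, -0.15 for SLC39A6, -0.052 for SLC39A7, -0.059 for SLC30A4, -0.25 for SLC39A9, -0.0031 for SLC40A1 and -0.060 for CD2BP2, with 3 genes of the 10 higher in Cu. Median-of-ratios scaling gave -0.0075 for MTF1, -0.046 for SLC30A5, -0.17 for SLC39A6, -0.11 for SLC30A4 and -0.13 for SLC39A9, with 4 of the 10 higher. Leaving out single libraries, the log2 difference ran from -0.39 to 0.84 for MTF1 and from 0.72 to 2.36 for MT3. The same ranges were -0.069 to 0.35 for SLC30A5, -0.036 to 0.49 for SLC39A1, -0.15 to 0.26 for SLC39A6 and -0.35 to 0.21 for SLC39A10, and, outside the 10 genes, -0.99 to 0.49 for MT1D, -0.044 to 0.28 for SLC30A4, -1.22 to 0.38 for SLC30A6, -0.18 to 0.29 for SLC39A9, -0.41 to 0.87 for CD2BP2 and -0.34 to 0.91 for CTC1. SLC39A8 and SLC39A13 passed an adjusted p of 0.05 only without Cu 3, at -1.20 and 1.36. Genes with both an unadjusted p up to 0.05 and a log2 difference from 1.5 upward in size numbered 160, 270 with a pseudocount of 0.1, and 91 (without Control 1) to 782 (without Cu 3) with a library left out. Genes at an adjusted p of 0.05 or less numbered 0 to 1755 with a library left out, 186 without Cu 1 and 1755 without Cu 3, where the lone Cu library was assumed to vary as the Control libraries did, and 0 under the other alternatives. The number of the 10 genes with the libraries separated was 6 to 9 with a library left out, where 58.7% to 83.5% of all tested genes were separated. SLC39A1 and SLC39A7 could not be fitted with the filter on all 4 libraries. The settings for genes outside the 10 and for separated libraries were added after the data were seen. No paired analysis was possible because the groups share only replicate number 1. The cause of these changes was not tested.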
